A study of Mus musculus with 12 samples.

Results

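Immunoglobulin and plasma cell genes were followed through the bone marrow of 12 mice: 3 double-knockout mice lacking both Fancc and Fancg (Fancc-/-//Fancg-/-), 3 Fancc-/- mice, 3 Fancg-/- mice and 3 wild-type C57Bl/6 mice. The proteins FANCC and FANCG belong to the core complex of the Fanconi anemia pathway, through which cells repair crosslinked DNA. Each mouse gave 1 array of marrow RNA, with no fractionation, culture or pooling, and the labels used here give no age, sex or breeding of the animals. The values are log2 signals per probe set as deposited, so 1 unit is a doubling of signal.

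The 10 genes were Ighm, Igk, Ighv14-2, Jchain, Mzb1, Xbp1, Prdm1, Irf4, Slamf7 and Sdc1, taken as every probe set that carried 1 of these symbols and no other. They made up 30 of the 34945 probe sets with a single symbol and 10 of 18193 genes. Of the 30 probe sets, 27 were above their array's median on at least 3 arrays, and all 10 genes entered the test on the probe set of highest mean. The group was chosen with the rise of Igk and Ighm in Fancc-/- against wild type already known, so values of that comparison, and of the double knockout against Fancc-/-, are given as description with no p value and no count of calls, for these genes and for the lists set beside them. The remaining comparisons with wild type use the same 3 wild-type mice as the one that guided the choice.

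An antibody is built of heavy chains, such as the mu chain of IgM from Ighm, and light chains, most often kappa chains from the Igk locus. Each chain joins a constant region to a variable region such as Ighv14-2, and the J chain (Jchain) links IgM and IgA into polymers. A B cell becomes a plasma cell when Irf4 and Prdm1 (Blimp-1) shut down the B cell programme and Xbp1 expands the secretory apparatus. Plasma cells that settle in the marrow carry Sdc1 (CD138) and Slamf7 (CD319) on their surface. Mzb1, a chaperone-associated protein of the endoplasmic reticulum, helps IgM assembly. In bulk marrow, fewer cells of a type and less RNA per cell cannot be told apart.

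By RefSeq annotation of GRCm38.p6, Ighm lies at chr12:113418826-113422730 as a constant region, and Ighv14-2 is a variable segment at chr12:113994469-113994898. The whole Igk locus spans chr6:67555636-70726754. The protein-coding members are Slamf7 (chr1:171632403-171653037), Jchain (chr5:88519809-88527897), Prdm1 (chr10:44437174-44528558), Xbp1 (chr11:5520641-5525993), Sdc1 (chr12:8771396-8793716) and Irf4 (chr13:30749233-30766981), besides Mzb1. The probe positions within these genes were not used here.

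The 250 bases upstream of the transcript start in the RefSeq promoter table are shown for 3 members whose values differ most in kind: Irf4 and Slamf7, which were lower in every knockout mouse than in any wild-type mouse, and Jchain, whose ranges overlapped in all 4 groups. The windows are RefSeq sequences of GRCm38.p6, written 5′ to 3′ along the gene, at chr13:30748983-30749232 (plus strand) for Irf4, chr1:171649000-171649249 (minus strand) for Slamf7 and chr5:88527898-88528147 (minus strand) for Jchain. The Slamf7 window lies inside the full annotated extent of its gene. Capitals mark the motif TATAAA, the core of a TATA box.
Irf4: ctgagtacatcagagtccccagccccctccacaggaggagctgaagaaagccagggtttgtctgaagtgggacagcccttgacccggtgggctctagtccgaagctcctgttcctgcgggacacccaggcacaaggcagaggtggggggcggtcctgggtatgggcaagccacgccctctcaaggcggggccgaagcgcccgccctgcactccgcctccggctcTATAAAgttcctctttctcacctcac
Slamf7: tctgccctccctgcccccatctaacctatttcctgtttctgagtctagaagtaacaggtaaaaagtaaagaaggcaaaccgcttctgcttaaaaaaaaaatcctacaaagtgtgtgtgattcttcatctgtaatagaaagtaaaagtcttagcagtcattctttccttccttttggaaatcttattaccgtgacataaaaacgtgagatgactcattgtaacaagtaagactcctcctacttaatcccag
Jchain: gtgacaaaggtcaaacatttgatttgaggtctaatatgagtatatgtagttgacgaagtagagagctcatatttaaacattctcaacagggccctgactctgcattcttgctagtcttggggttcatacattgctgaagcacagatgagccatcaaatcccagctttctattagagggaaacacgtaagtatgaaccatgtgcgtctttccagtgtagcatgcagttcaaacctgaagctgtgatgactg

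TATAAA, searched on both strands, occurred in the Irf4 window but not in those of Slamf7 or Jchain, and 12.4% of 32851 promoter windows hold it. Windows were also at hand for Xbp1, Prdm1 and Sdc1, but not for Ighm, Igk, Ighv14-2 or Mzb1. Other motifs searched on both strands were the octamer ATGCAAAT, found in 1.6% of all windows, the core TGACGTGG of the unfolded protein response element, in 0.563%, an interferon-stimulated response element, in 2.98%, and the Ets-IRF composite element, in 2.3%. None of these 4 was in any of the 6 windows, which says only that the letters are not in these bases. The Irf4 window was 63.6% G and C, Slamf7 38.0% and Jchain 42.0%, against a median of 52.4% over all windows.

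Series-wide facts that touch these genes are few. Array medians lay between 4.79 and 4.87, and the number of arrays limits the precision. Fancg-/- replicate 3 was labelled from 0.91 µg of RNA, the other arrays from 2 µg. Fancg was at 5.41 to 5.83 on its probe sets in the double knockout and at 6.00 and 5.92 in Fancg-/- replicate 2. It was at 6.43 to 6.67 in Fancg-/- replicates 1 and 3, at 6.43 to 6.78 in Fancc-/- and at 6.80 to 6.92 in wild type. The libraries labelled Fancg-/- replicates 1 and 3 thus did not show the fall of replicate 2, and their range overlapped that of Fancc-/-. Fancc was not lower in Fancc-/-, but where its probes lie relative to the deletion is not known, so this checks nothing. Xist, the RNA of the inactive X chromosome, was at 5.99 to 7.39 in the double knockout and 7.34 in Fancg-/- replicate 2, against 10.75 to 12.23 on all other arrays. The Y-linked Eif2s3y was at 8.81 to 9.35 in the double knockout, at 7.64, 9.09 and 5.78 in Fancg-/- and at 2.89 to 3.30 in Fancc-/- and wild type. Between the double knockout and wild type, sex cannot be told apart from genotype, and Fancg-/- replicates 1 and 3 carried both marks. A fit with Xist as a covariate cannot separate sex from genotype in that comparison. Calls that it loses there are listed below, but nothing is read from their loss.

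The IgM heavy chain was read by 11 probe sets, and they did not behave as 1 measurement. The probe set of highest mean, 1427351_s_at, was at 13.87, 13.96 and 14.08 in the double knockout, 14.44, 14.32 and 14.31 in Fancc-/-, 13.84, 14.04 and 13.68 in Fancg-/- and 13.89, 13.68 and 13.98 in wild type. All 3 Fancc-/- mice lay above every other mouse, and the other groups overlapped, close to the highest value in the table, 14.6. A further probe set, 1427329_a_at, gave 12.83, 12.78 and 13.05 in the double knockout, 13.96, 13.56 and 13.58 in Fancc-/-, 12.70, 12.99 and 12.56 in Fancg-/- and 13.07, 12.56 and 13.03 in wild type, again with Fancc-/- alone above the rest. On 1427351_s_at the Fancc-/- change was 0.51 ± 0.10 (log2, SE, n = 3 mice per group), and it was -0.21 on the 1 Ighm probe set used when probe sets with names ending in s_at, x_at or a_at were left out. The double knockout differed from wild type there by 0.12 ± 0.10 (limma adjusted p = 0.503) and Fancg-/- by 0.00 ± 0.10 (adjusted p = 0.998).

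The Ighm probe set 1425385_a_at was higher in every knockout mouse than in any wild-type mouse. It was picked out of the 11 Ighm probe sets by this pattern, so its tests against the same wild-type mice add no independent support. It read 12.28, 12.62 and 12.11 in the double knockout, 11.33, 11.38 and 10.89 in Fancc-/-, 11.01, 11.69 and 11.42 in Fancg-/- and 9.13, 9.81 and 9.99 in wild type. The double knockout stood above both single knockouts, whose ranges overlapped each other. In a fit over 20558 probe sets it rose by 2.69 ± 0.24 in the double knockout (6.46-fold, limma adjusted p = 0.00209), where 3.91% of probe sets passed. In Fancg-/- it rose by 1.73 ± 0.24 (3.31-fold, adjusted p = 0.0279), where 0.0438% passed, and the Fancc-/- difference was 1.56 ± 0.24. The double knockout against Fancg-/- gave 0.96 ± 0.24 (adjusted p = 0.190). With Xist as a covariate the adjusted p was 1 in the double knockout, a comparison that this fit cannot decide, and 0.472 in Fancg-/-. The Fancg-/- call was also lost without variance moderation (0.243), without Fancg-/- replicates 1 and 3 together (2.04, adjusted p = 0.172), and without wild-type replicate 1 (0.121), 2 (0.188) or 3 (0.0577), Fancg-/- replicate 1 (0.0820) or 2 (0.162), Fancc-/- replicate 1 (0.0600) or 2 (0.0524), or double-knockout replicate 3 (0.0598).

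Another 4 Ighm probe sets varied widely between mice of the same genotype in all groups but Fancc-/-. On 1425247_a_at the double knockout read 11.52, 12.31 and 8.25, Fancc-/- 9.30, 9.98 and 9.98, Fancg-/- 11.86, 10.22 and 5.23 and wild type 7.45, 10.71 and 10.28. The other members of this block (1425324_x_at, 1427756_x_at and 1427870_x_at) followed the same mice, with pairwise correlations from 0.992 to 0.999 over the 12 arrays. They are not independent readings, since probe sets of 1 gene can share sequence. Correlations with 1427351_s_at were only 0.01 to 0.10, and with 1425385_a_at 0.25 to 0.27.

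In this block Fancg-/- replicate 3, double-knockout replicate 3 and wild-type replicate 1 were each the lowest of their group on all 4 probe sets. Fancg-/- replicate 3, the array with the smaller RNA input, spanned 4.74 to 6.54 there, and it was at 11.42 on 1425385_a_at and at 11.96 on Jchain, inside its group's range on both. Wild-type replicate 1 spanned 6.59 to 8.39, and the part of RNA input was not tested. The double-knockout changes on the 4 probe sets were 1.11 to 1.32 with standard errors of 1.35 to 1.54 and adjusted p values of 0.645 to 0.683, so that difference did not exceed the spread between mice.

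The remaining Ighm probe sets added little. Probe set 1452535_at was at 9.09, 8.17 and 8.19 in the double knockout, 7.81, 6.90 and 6.79 in Fancc-/-, 7.08, 7.95 and 7.97 in Fancg-/- and 7.51, 7.60 and 7.02 in wild type. The double knockout lay above all other mice, at 1.10 ± 0.34 over wild type, which did not pass (adjusted p = 0.0821). The dim probe sets 1426196_at, 1427869_at and 1451949_at ran from 3.53 to 4.04, from 3.73 to 5.01 and from 4.70 to 5.11.

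**Figure D1:**
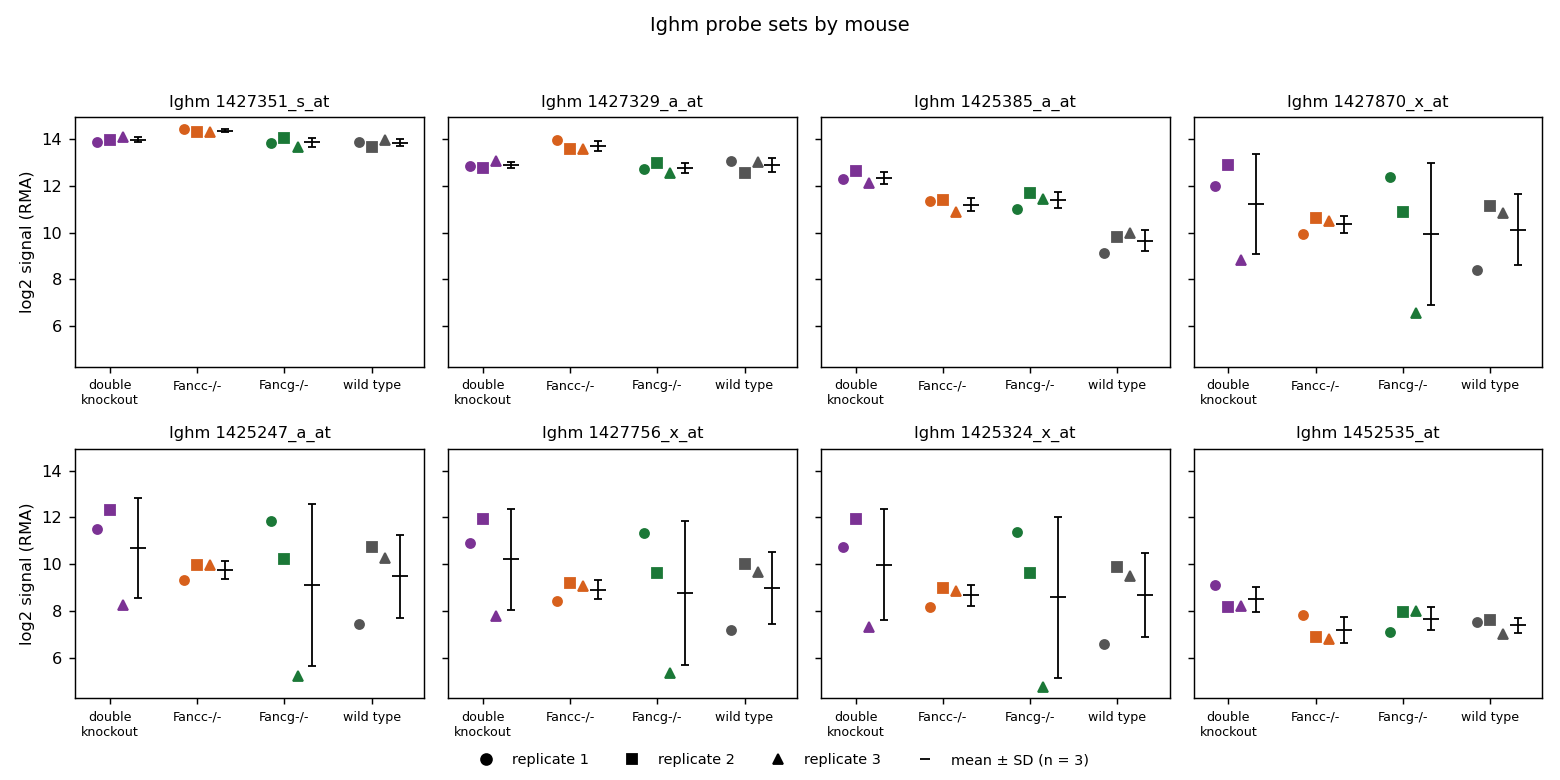
Log2 signal (RMA) of Ighm probe sets in each mouse, by genotype, with the mean and SD of 3 mice. The Fancc-/- mice lie highest on 1427351_s_at (14.31 to 14.44), the wild-type mice lowest on 1425385_a_at (9.13 to 9.99), and probe sets such as 1425247_a_at scatter widely within each genotype but Fancc-/-.

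The kappa light chain showed its highest values in Fancc-/- mice. Igk on 1425738_at was at 10.13, 11.24 and 9.82 in the double knockout, 12.68, 10.50 and 10.92 in Fancc-/-, 9.66, 10.27 and 9.59 in Fancg-/- and 9.34, 8.74 and 8.98 in wild type. Every knockout mouse was above every wild-type mouse. The double knockout overlapped both single knockouts, and all Fancc-/- mice lay above all Fancg-/- mice. The Fancc-/- difference of 2.35 ± 0.50 was 1.69 without Fancc-/- replicate 1, the highest array. Neither of the other knockouts passed the test: the double knockout was at 1.38 ± 0.50 (limma adjusted p = 0.119) and Fancg-/- at 0.82 ± 0.50 (adjusted p = 0.856). The double-knockout value passed without Fancc-/- replicate 1 (adjusted p = 0.0423) and with array weights (1.48, adjusted p = 0.0225).

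A second Igk probe set, 1427757_at, gave 6.72, 6.69 and 5.95 in the double knockout, 8.03, 7.47 and 6.76 in Fancc-/-, 5.99, 6.11 and 6.39 in Fancg-/- and 5.99, 5.73 and 5.62 in wild type. Fancc-/- was again entirely above wild type, by 1.64 ± 0.29, while the double knockout at 0.67 and Fancg-/- at 0.38 reached into the wild-type range. Over the 12 arrays it followed 1425738_at with a correlation of 0.88. Probe set 1452557_a_at stayed between 7.04 and 7.72 on all arrays, and the dim 1426178_at between 4.04 and 5.10.

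The heavy-chain variable segment Ighv14-2 ran the other way. It was at 8.22, 6.61 and 5.82 in the double knockout, 5.10, 6.68 and 4.47 in Fancc-/-, 6.66, 7.50 and 8.32 in Fancg-/- and 9.12, 9.04 and 8.56 in wild type. All 9 knockout mice were below all wild-type mice, with a spread of over 1 unit within each knockout group. The change was -2.02 ± 0.64 in the double knockout (adjusted p = 0.083), -1.42 ± 0.64 in Fancg-/- (adjusted p = 0.700) and -3.49 ± 0.64 in Fancc-/-. The double-knockout value passed without double-knockout replicate 1, the highest of its group (-2.69, adjusted p = 0.0121), without Fancc-/- replicate 3 (-2.02, adjusted p = 0.0474) and with array weights (-2.50, adjusted p = 0.00232), and it was -1.49 without double-knockout replicate 3 (adjusted p = 0.295). Across the 12 arrays its correlation with Igk 1425738_at was -0.75 and with Ighm 1427351_s_at -0.78. These arrays share the 4 genotypes. A variable segment is used by a fraction of B cells, and related segments can share probe sequence, so its signal is not that of total heavy chain.

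**Figure D2:**
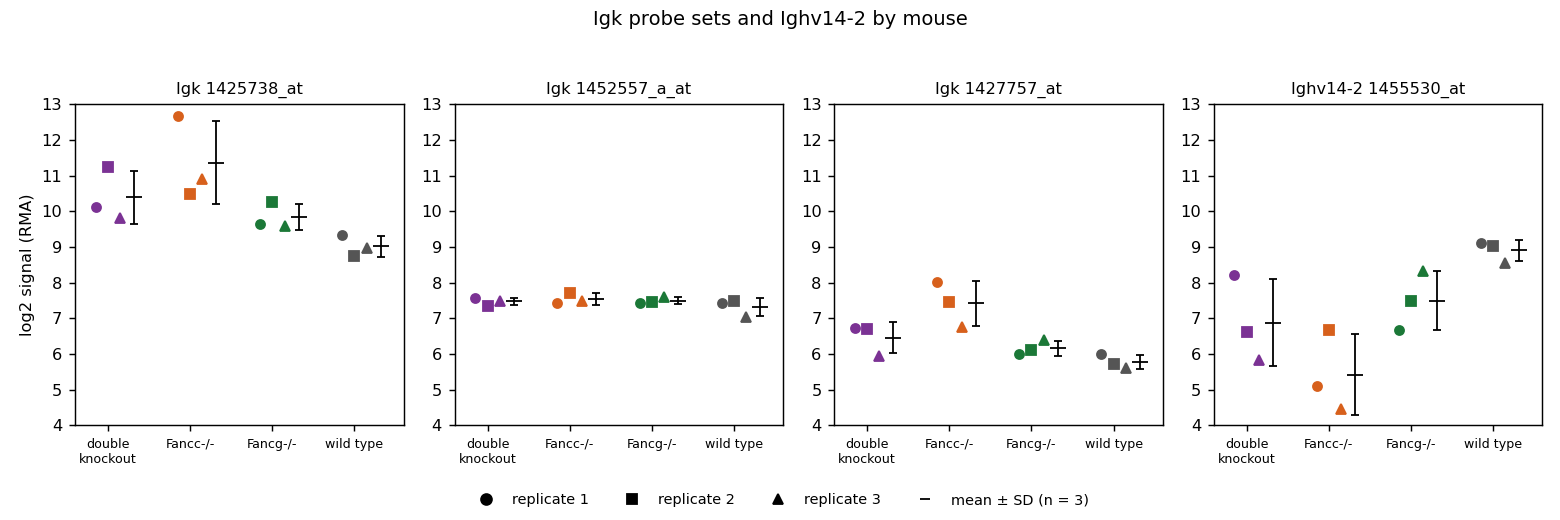
Log2 signal (RMA) of Igk probe sets and Ighv14-2 in each mouse, by genotype, with the mean and SD of 3 mice. Igk 1425738_at is lowest in wild type (8.74 to 9.34) and Ighv14-2 is highest there (8.56 to 9.12).

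Jchain, made by antibody-secreting cells, did not separate the genotypes. It was at 11.75, 12.18 and 12.43 in the double knockout, 12.34, 12.38 and 11.08 in Fancc-/-, 11.70, 12.49 and 11.96 in Fancg-/- and 12.44, 12.29 and 11.61 in wild type. The 4 groups overlapped, and the lowest array was Fancc-/- replicate 3. Its change was 0.01 ± 0.34 in the double knockout (adjusted p = 0.991), -0.06 ± 0.34 in Fancg-/- (adjusted p = 0.992) and -0.18 ± 0.34 in Fancc-/-. With standard errors of this size a modest change was not detectable.

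Mzb1, the endoplasmic reticulum protein of antibody-making B-lineage cells encoded on chromosome 18, was at 8.95, 9.46 and 8.96 in the double knockout, 9.48, 9.83 and 8.20 in Fancc-/-, 8.50, 9.26 and 9.27 in Fancg-/- and 10.24, 9.90 and 9.67 in wild type. Double-knockout and Fancg-/- mice lay below all wild-type mice, and Fancc-/- overlapped them through replicate 2. The values were -0.82 ± 0.36 in the double knockout (adjusted p = 0.192), -0.93 ± 0.36 in Fancg-/- (adjusted p = 0.615) and -0.77 ± 0.36 in Fancc-/-. In the double knockout it passed without Fancc-/- replicate 3 (adjusted p = 0.0431) and in a fit of only the groups compared (0.0479). As with Jchain, Fancc-/- replicate 3 was the lowest of the 12 arrays, and the correlation of Mzb1 with Jchain over the arrays was 0.67.

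Of the transcription factors, only Irf4 passed the test. On 1421173_at it was at 7.28, 7.27 and 6.96 in the double knockout, 7.14, 6.88 and 6.91 in Fancc-/-, 6.57, 7.18 and 7.53 in Fancg-/- and 8.21, 9.02 and 8.32 in wild type. Every knockout mouse was below the lowest wild-type mouse. Irf4 fell by 1.35 ± 0.25 in the double knockout (0.394-fold, adjusted p = 0.0179), and its value was -1.42 ± 0.25 in Fancg-/- (adjusted p = 0.0986) and -1.54 ± 0.25 in Fancc-/-.

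In the double knockout Irf4 no longer passed when wild-type replicate 2 (adjusted p = 0.0721) or 3 (0.0616) was left out, without double-knockout replicate 2 (0.0578) or 3 (0.0925), without variance moderation (0.0735) and with Xist as a covariate (1). In Fancg-/- it passed without replicate 3 (0.0273) and with array weights (0.0052). The second Irf4 probe set, 1421174_at, was dimmer and again highest in wild type without overlap, at 4.91, 5.05 and 4.34 in the double knockout, 4.66, 4.69 and 5.07 in Fancc-/-, 4.76, 4.91 and 4.83 in Fancg-/- and 5.21, 5.32 and 5.78 in wild type. Its double-knockout change of -0.67 ± 0.20 did not pass (adjusted p = 0.0725).

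Xbp1, which drives secretory expansion, was nearly level. On 1437223_s_at it was at 11.24, 11.74 and 11.86 in the double knockout, 11.69, 11.52 and 11.26 in Fancc-/-, 11.25, 11.42 and 11.58 in Fancg-/- and 11.39, 11.54 and 11.29 in wild type, and all groups overlapped. Its change was 0.21 ± 0.16 in the double knockout (adjusted p = 0.489), 0.01 ± 0.16 in Fancg-/- (adjusted p = 0.998) and 0.08 ± 0.16 in Fancc-/-. Splicing of Xbp1 to its active form is not resolved by these values.

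Prdm1, the repressor that completes the exit from the B cell programme, had a low signal. It was at 5.16, 5.33 and 5.25 in the double knockout, 5.14, 5.49 and 5.04 in Fancc-/-, 4.83, 4.80 and 4.56 in Fancg-/- and 4.67, 5.09 and 5.06 in wild type. The double knockout lay above wild type and Fancg-/- without overlap, and the other groups overlapped wild type. The values were 0.30 ± 0.15 in the double knockout (adjusted p = 0.229), -0.21 ± 0.15 in Fancg-/- (adjusted p = 0.886) and 0.28 ± 0.15 in Fancc-/-. Against Fancg-/- the double knockout was at 0.52 ± 0.15 (adjusted p = 0.186).

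Of the surface proteins, Slamf7, a receptor of plasma cells that NK cells and other leukocytes also carry, had a low signal. It was at 4.45, 4.43 and 4.52 in the double knockout, 4.72, 4.42 and 4.30 in Fancc-/-, 4.40, 4.48 and 4.83 in Fancg-/- and 5.47, 5.40 and 5.02 in wild type. All knockout mice were below all wild-type mice. The probe set was above the array median on only 4 arrays, the 3 of wild type and Fancg-/- replicate 3, so it entered the test through the group where it is high and its call supports nothing. Its fitted value was -0.83 ± 0.15 in the double knockout (adjusted p = 0.0176), where all 3 arrays lay under the array median, so the size of the difference is uncertain. Its value was -0.73 ± 0.15 in Fancg-/- (adjusted p = 0.166) and -0.82 ± 0.15 in Fancc-/-. The double-knockout value no longer passed when wild-type replicate 1 (0.0568) or 2 (0.0742) was left out, without double-knockout replicate 2 (0.062) or 3 (0.0719), without variance moderation (0.0705) and with Xist as a covariate (1).

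Sdc1, the heparan sulfate proteoglycan used to sort plasma cells, was at 5.87, 7.34 and 7.32 in the double knockout, 7.51, 7.02 and 6.29 in Fancc-/-, 6.06, 6.21 and 6.52 in Fancg-/- and 7.30, 7.09 and 6.68 in wild type. Fancg-/- lay below wild type without overlap, and double-knockout replicate 1 stood well under the other mice of its group. The change was -0.18 ± 0.38 in the double knockout (adjusted p = 0.827), -0.77 ± 0.38 in Fancg-/- (adjusted p = 0.759) and -0.08 ± 0.38 in Fancc-/-. These values are of 1415943_at. A further Sdc1 probe set, 1437279_x_at, was also lower in Fancg-/- without overlap, at -0.89 ± 0.30 (adjusted p = 0.528 over probe sets). The remaining Sdc1 probe sets overlapped wild type in Fancg-/-, at -0.12 ± 0.13 on 1415944_at and -0.10 ± 0.17 on 1448158_at.

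**Figure D3:**
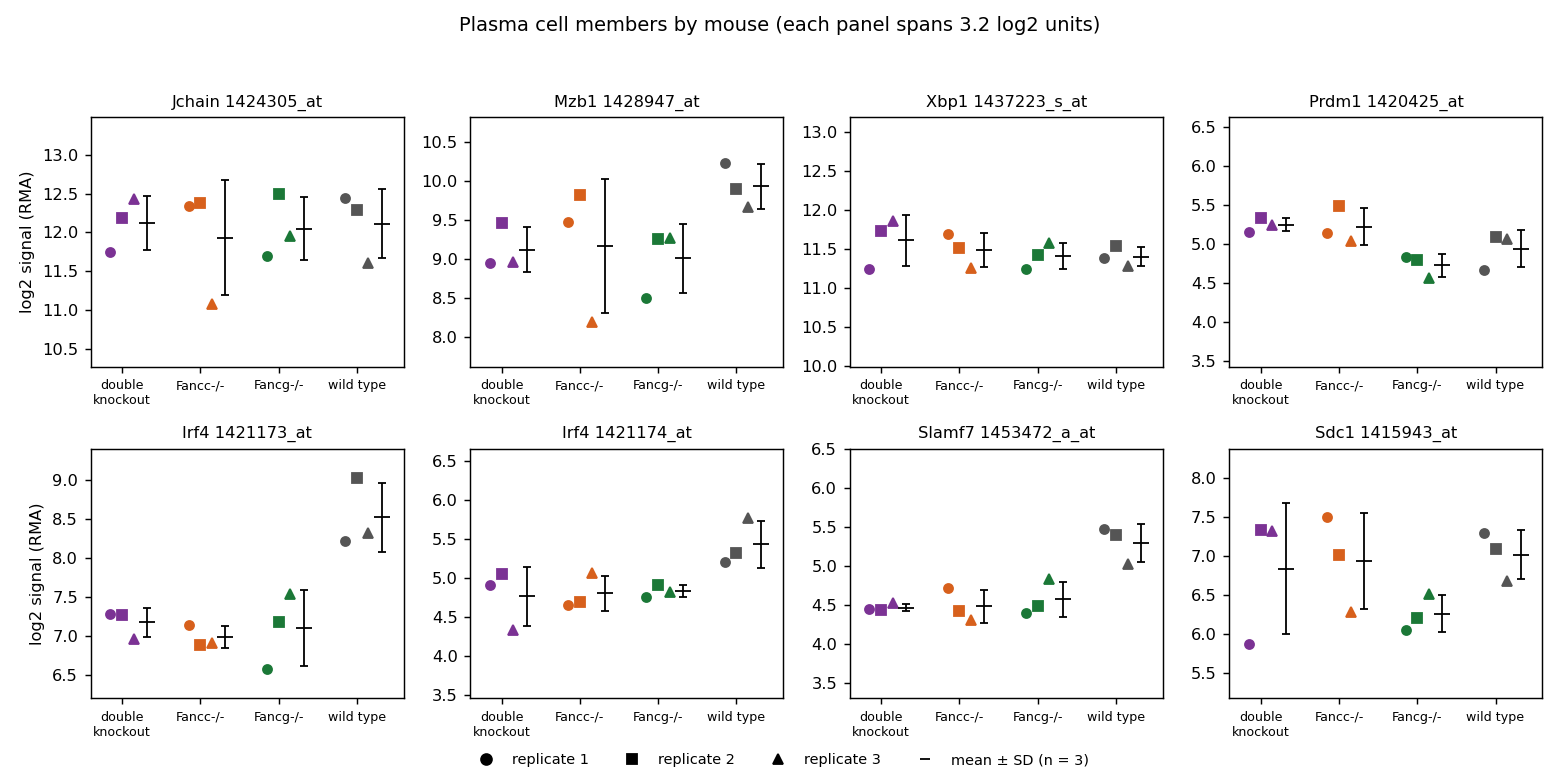
Log2 signal (RMA) of Jchain, Mzb1, Xbp1, Prdm1, Irf4, Slamf7 and Sdc1 in each mouse, by genotype, with the mean and SD of 3 mice. Irf4 (8.21 to 9.02) and Slamf7 (5.02 to 5.47) are highest in wild type with no overlap, and Jchain overlaps in all groups.

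In counts over the 10 genes, 0 rose and 2 fell in the double knockout against wild type (Irf4, and Slamf7, which was tested only through its wild-type level), in a comparison where 5.28% of the 11908 tested genes passed, 2.27% higher and 3.01% lower. The median change of the 10 was -0.09, against -0.01 for all genes, and 5 of them had an unadjusted p below 0.05. In Fancg-/- against wild type 0 of the 10 passed by limma, 4 had an unadjusted p below 0.05, and 0.0504% of all genes passed, 0.0084% higher and 0.042% lower. In the double knockout against Fancg-/-, which shares no mice with the comparison that guided the choice of genes, 0 of 10 passed, 1 (Prdm1) had an unadjusted p below 0.05, and 0 of 11908 genes passed, with 1714 at an unadjusted p below 0.05. In Fancc-/- against wild type 4.53% of all genes passed, 2.18% higher and 2.36% lower, and in the double knockout against Fancc-/- 0.0084%. Nothing is read from the members' part in these comparisons. In the second Igk was at -0.97 (-0.31 without Fancc-/- replicate 1), Ighv14-2 at 1.47 (0.80 without double-knockout replicate 1, 0.59 with array weights) and Ighm at -0.39 (1.31 on the probe set not ending in s_at, x_at or a_at).

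Over the 27 brighter probe sets, 2 were higher in all 9 knockout mice than in any wild-type mouse (Ighm 1425385_a_at and Igk 1425738_at), and 4 were lower (Ighv14-2, both Irf4 probe sets and Slamf7). Of 20558 probe sets, 2.18% were higher and 3.6% lower in this sense. Slamf7 is among the 27 only through its wild-type level, so its place in this and the following counts of lower probe sets supports nothing. In the double knockout alone 4 were above wild type, where 13% of all probe sets were, and 5 were below it, where 15.8% were. In Fancg-/- 2 were above wild type, against 7.66% of all probe sets, and 7 below, against 8.96%. In Fancc-/- 5 were above, against 10.1% of all probe sets, and 4 below, against 12.8%, from which nothing is read. The first counts include the Fancc-/- mice that guided the choice.

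**Figure D4:**
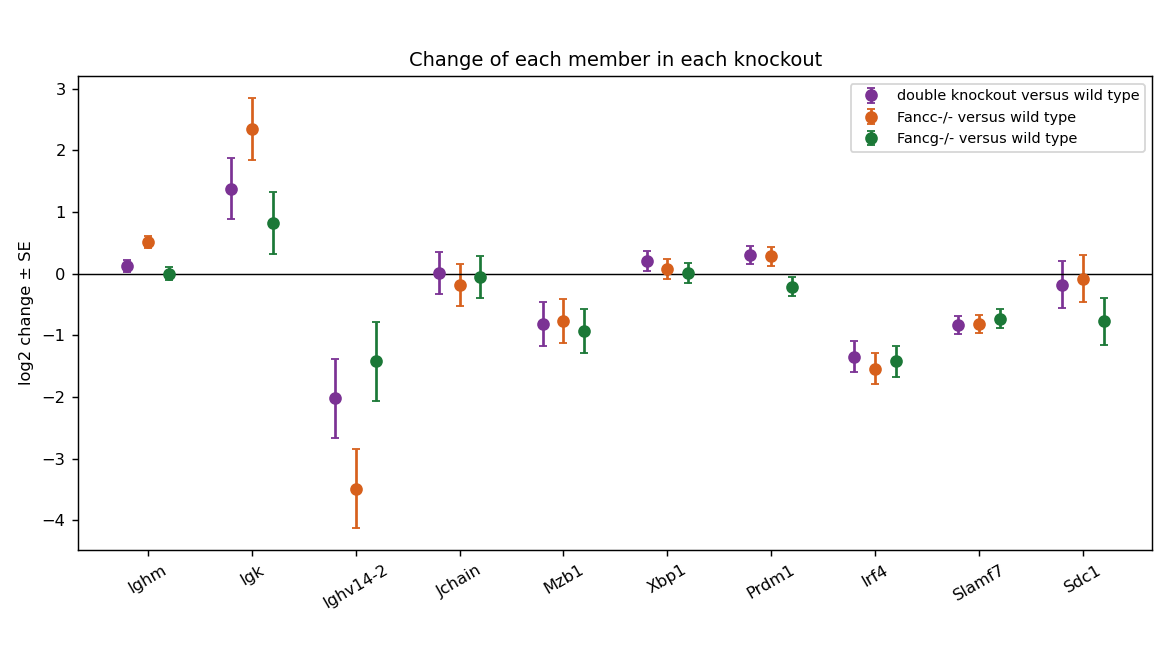
Log2 change against wild type, with standard errors, of each member in each knockout, on the probe set of highest mean (n = 3 mice per group, 1 shared wild-type group). Irf4 lies between -1.54 and -1.35 in all 3 knockouts, Ighv14-2 between -3.49 and -1.42, and Igk between 0.82 and 2.35.

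Other immunoglobulin genes on the array did not pass in the double knockout or in Fancg-/-. Of 17 such genes 14 were tested, 0 passed in the double knockout against wild type (3 at an unadjusted p below 0.05), and 12 of the 14 had a positive value, with a median of 0.33. In Fancg-/- 0 passed (0 unadjusted, median 0.08), and in Fancc-/- the median was 0.10. The kappa segment Igkv6-14 read 10.80, 8.80 and 7.94 in the double knockout against 7.33, 7.63 and 7.19 in wild type, at 1.80 ± 0.61 (adjusted p = 0.103). Igkv8-30 was at 0.31 ± 0.10 there (adjusted p = 0.101).

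Single mice stood out on other antibody genes, which were picked after their values were seen. Ighg3, the IgG3 constant region, was at 10.21 in double-knockout replicate 2 and 10.01 in Fancc-/- replicate 1, and at 5.79 to 6.99 on the other arrays. Igkv6-20 was at 11.73 in Fancc-/- replicate 1, which also had the highest Igk, and at 6.13 to 8.78 elsewhere. Igha, the IgA heavy chain, lay between 12.55 and 13.83 in all mice.

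Among 21 regulators and surface proteins of plasma cells, 0 rose and 2 fell in the double knockout, where 3.01% of all tested genes fell. The median of the 21 was -0.20. Pou2af1, the B-lineage coactivator OCA-B, was at 8.43, 7.58 and 7.58 in the double knockout, 8.84, 8.53 and 7.85 in Fancc-/-, 7.54, 8.07 and 8.97 in Fancg-/- and 9.90, 9.60 and 9.22 in wild type. It was thus highest in wild type without overlap, as Irf4 was, and fell by 1.71 ± 0.37 in the double knockout (adjusted p = 0.0279). Glcci1 fell by 1.41 ± 0.24 (adjusted p = 0.015). Neither passed with Xist as a covariate, without variance moderation, or without wild-type replicate 2 or 3 or double-knockout replicate 2 or 3. In Fancg-/- 0 of 21 passed (4 unadjusted), with Pou2af1 at -1.38 (adjusted p = 0.305). In Fancc-/- the list's median was -0.28, with Tent5c, a poly(A) polymerase that stabilizes immunoglobulin mRNA and is also expressed in red cell precursors, at 1.09 ± 0.13 and Cd93 at -0.90 ± 0.18. Tnfrsf17, the plasma cell receptor BCMA, was at 5.63, 5.41 and 4.00 in Fancc-/- and at 4.95, 5.01 and 4.65 in wild type. Over all arrays it ran from 4.00 to 5.63, so Fancc-/- mice held both its highest and its lowest values. Of the 21 genes, 7 had a positive value in Fancc-/-.

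The secretory pathway and unfolded protein response are governed by Xbp1 in plasma cells. Among 49 of their genes 1 fell and 0 rose in the double knockout, where 3.01% of all tested genes fell. The median of the 49 was 0.03. The gene that fell was Edem3, which trims sugars of misfolded proteins, by 0.61 ± 0.15 (adjusted p = 0.0431), and the list's count was 0 in 9 of the 12 fits that left out 1 array. In Fancg-/- 0 of 49 passed (1 unadjusted, median -0.07), and in Fancc-/- the median was -0.21, with the chaperone Hspa5 (BiP) at -0.44 ± 0.14. Derl3, a plasma cell gene of this pathway, was at 8.10, 7.70 and 7.00 in Fancc-/- and at 7.20, 7.11 and 6.98 in wild type. Over all arrays it ranged from 6.97 to 8.10. Of the 49 genes, 8 had a positive value in Fancc-/-. These genes are used by all marrow cells, so the list is not specific to plasma cells.

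Among 24 B cell genes that plasma cells switch off (the mature B cell list), 14 fell and 0 rose in the double knockout. There 3.01% of all tested genes fell, and the median of the 24 was -1.35. Whether this list separates mature B cells from precursors was not tested. In Fancg-/- 0 passed (18 unadjusted), with a median of -1.04, and in Fancc-/- the median was -1.84. The double-knockout count was 0 with Xist as a covariate, without variance moderation, without wild-type replicate 2 and without double-knockout replicate 3. It was 5 without wild-type replicate 1, 4 without wild-type replicate 3 and 3 without double-knockout replicate 2, while the median stayed between -1.78 and -1.16 in all these and the other leave-out settings. Bach2, a repressor that holds back plasma cell differentiation, was at 6.21, 5.40 and 5.28 in the double knockout, 4.97, 5.88 and 4.90 in Fancc-/-, 5.28, 6.03 and 7.28 in Fancg-/- and 8.60, 8.63 and 8.40 in wild type. It fell by 2.91 ± 0.43 in the double knockout (adjusted p = 0.0107), while Spib fell by 2.48 and Ebf1 fell by 2.39. The mature B cell markers Ms4a1, Fcer2a and Cr2 were at -2.25, -1.39 and -1.04 there, and 3 of the 24 genes had a positive value. The mean level of the list ranged over mice from 6.93 to 7.47 in the double knockout, from 6.57 to 7.16 in Fancc-/-, from 7.08 to 7.85 in Fancg-/- and from 8.46 to 8.67 in wild type.

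Of 18 tested B precursor genes 10 fell in the double knockout, where 3.01% of all tested genes fell, and the median was -1.21. In Fancg-/- 0 passed (12 unadjusted, median -0.74). The double-knockout count was 0 with Xist as a covariate, without variance moderation and without wild-type replicate 2, 1 without double-knockout replicate 3, 4 without double-knockout replicate 2 and 5 without wild-type replicate 1 or 3. In Fancc-/- the median was -1.01. Rag1, a recombinase that assembles immunoglobulin genes, was at 3.06, 3.36 and 3.97 in the double knockout, 3.52, 3.47 and 3.32 in Fancc-/-, 3.60, 3.77 and 6.53 in Fancg-/- and 7.84, 7.37 and 6.94 in wild type. Fancg-/- replicate 3 was near wild type, as it was on Ighv14-2, where it read 8.32. Rag1 was above the array median only in the wild-type mice and in Fancg-/- replicate 3. It thus entered the test through the group where it is high, and its call among the 10 supports nothing. Side by side, the Fancc-/- values were lower for the precursor gene Vpreb3 (-3.99) and for Bach2 (-3.29). Of the 18 precursor genes, 2 had a positive value in Fancc-/-. The Fancc-/- values were higher for Igk on 1425738_at and 1427757_at, and for Ighm on 1427351_s_at, 1427329_a_at and 1425385_a_at. The other Igk and Ighm probe sets among the 27 brighter ones overlapped wild type. The difference between these gene groups was not tested, because the genes were chosen from this contrast.

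Irf4, Slamf7, Mzb1 and Pou2af1 are also expressed in B cells or in other leukocytes, and lists of other cell types were read beside them. Plasmacytoid dendritic cell genes had mean levels between 7.12 and 7.48 in the double knockout, between 6.45 and 7.39 in Fancc-/-, between 7.09 and 7.41 in Fancg-/- and between 7.78 and 8.04 in wild type. Of 15 such genes 2 fell in the double knockout (Spib and Ly6d), where 3.01% of all tested genes fell. Spib is also in the mature B cell list, and the other genes, among them Siglech (-0.64) and Ccr9 (-0.20), did not pass. The count was 0 without any 1 of the wild-type arrays, without double-knockout replicate 2 or 3, without variance moderation or with Xist as a covariate. In Fancg-/- 0 passed (6 unadjusted). The medians were -0.46 in the double knockout, -0.80 in Fancc-/- and -0.65 in Fancg-/-. T and NK cell genes had means between 6.75 and 7.21 in the double knockout, between 6.20 and 6.92 in Fancc-/-, between 6.93 and 7.06 in Fancg-/- and between 7.04 and 7.19 in wild type. In that list 0 of 16 passed in the double knockout (3 unadjusted, median -0.23), and the median in Fancc-/- was -0.38. Of 18 monocyte, macrophage and dendritic cell genes 0 passed in the double knockout (4 unadjusted, median -0.18), and of 12 tested stromal and epithelial genes 0 passed (1 unadjusted, median 0.07). In Fancc-/- these medians were -0.51 and 0.20. Fancc-/- replicate 3, the lowest array on Jchain and Mzb1, also had the lowest mean of the 12 arrays on the plasmacytoid list (6.45), the T and NK list (6.20) and the monocyte list (7.72). No marker in these lists was at 0, since array signals have a floor. The part of these cells in the Irf4 and Slamf7 values was not tested.

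**Figure D5:**
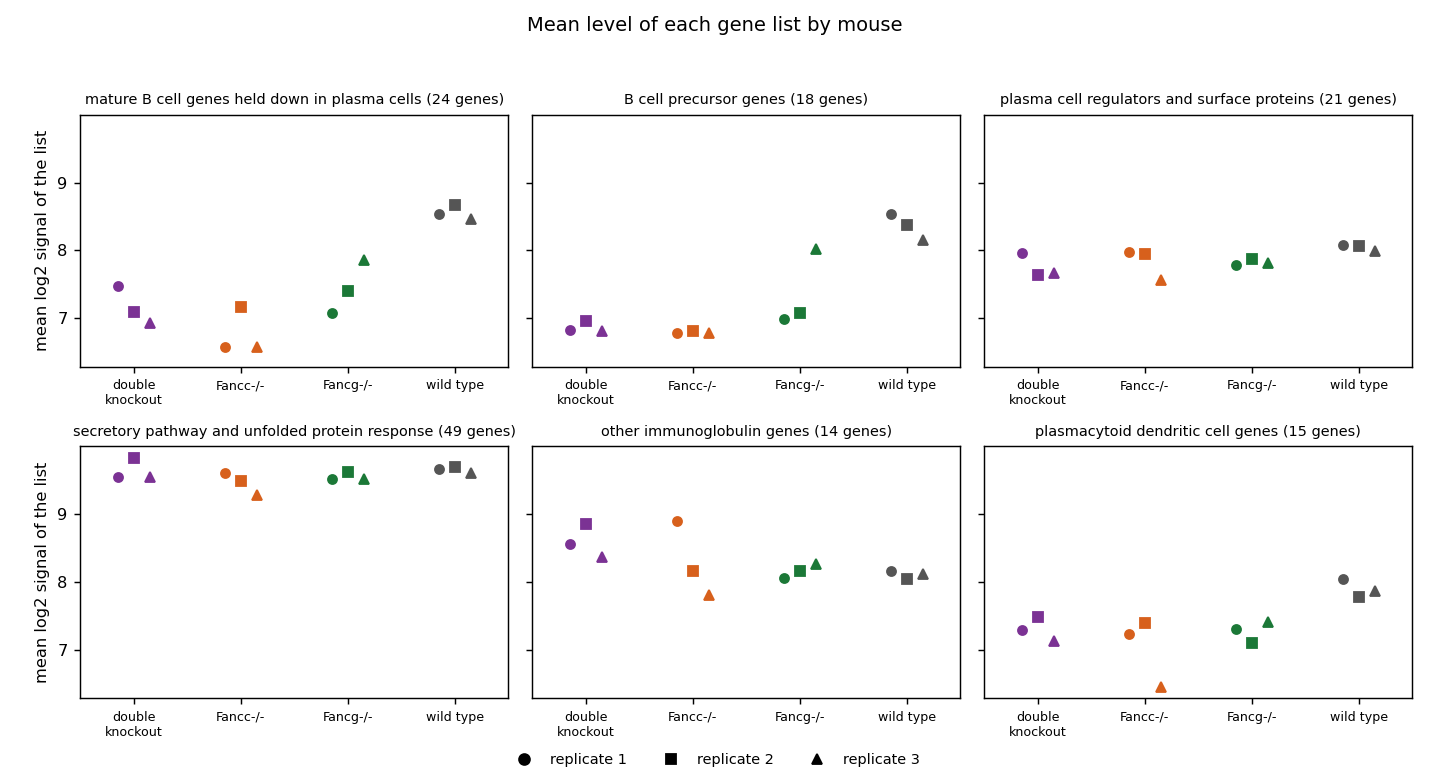
Mean log2 signal of the tested genes of each list in each mouse, by genotype. The mature B cell list is at 8.46 to 8.67 in wild type and at or below 7.85 in every knockout mouse, while the secretory pathway list stays between 9.28 and 9.83.

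The 5 tested genes whose pattern over the 12 arrays was most like that of Igk were Zfp39 (Pearson correlation 0.929), Hscb (0.923), B230110C06Rik (0.923), Slc1a4 (0.918) and Psme3 (0.911). For Jchain they were Gpn1 (0.885), Idua (0.864), Polr3e (0.864), Apex1 (0.857) and Clns1a (0.856). No other immunoglobulin gene was among them. These are the highest of 11908 correlations over 12 arrays that share 4 genotypes, and they describe these arrays only. Jchain and Xbp1 correlated at 0.64, Xbp1 and Sdc1 at 0.77 and Irf4 and Slamf7 at 0.90, whereas Jchain and Igk were at 0.05.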

How the data were processed

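Marrow RNA of 12 mice was hybridized to Affymetrix mouse arrays. The deposited values are log2 signals made by the authors with RMA and Partek, per the submitters' processing notes, which give no versions. RMA normalizes arrays to each other, so a change is relative to the rest of the marrow RNA. The table held 45101 probe sets (64 controls, 932 with several symbols and 9160 with none were left out). Of 34945 single-symbol probe sets, 34741 matched GRCm38.p6 by Entrez ID. Each gene was represented by its probe set of highest mean, kept if above the array median on at least 3 arrays (11908 genes).

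Comparisons used limma 3.58.1 in R 4.3.3, in 1 model of 4 genotype means over all arrays, with moderated variances, a variance trend and 8 residual degrees of freedom. Tests were 2-sided, with Benjamini-Hochberg adjustment over all genes (or over 20558 probe sets where stated) and a threshold of 0.05. Errors are standard errors. The code was tested on simulated data. Tables and sequences were handled with Python 3.11.15 and pandas 2.3.3.

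The members and gene lists were chosen with earlier results of these data known. The plan was to name all members and up to 4 called genes (or 3 of smallest p) per list and comparison. It also covered the 5 genes most like Igk and Jchain, and the label checks. Not all of the planned list genes are given here, and some others are named besides, so the list genes named are a choice. Probe set names ending in s_at or x_at mark probes shared between transcripts. Deviations of same-numbered arrays correlated at 0.16, 0.286 and 0.195 between Fancc-/- and wild type, all above a minimum of 0.1. Elsewhere they correlated at -0.41 to 0.209, with no other set of 3 all above 0.1. What unpaired mice would give was not worked out, so this does not show that the mice were paired. The labels do not say whether mice were littermates. Alternatives are given in the closing section.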

Additional observations from a re-analysis of the deposited data

Results flagged for a closer look

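Probe sets with several immunoglobulin symbols were left out of all comparisons, and 8 of them belong to the kappa locus. Apart from the dim 1427799_x_at, there were 6 of these on which the 3 mice of a knockout group all lay above the wild-type mice, which serve as controls. Of the 20558 single-symbol probe sets, 10.1% lay so in Fancc-/-, 13% in the double knockout and 7.66% in Fancg-/-. In Fancc-/- minus wild type the mean log2 differences were 0.25 on 1427455_x_at, 0.88 on 1427576_at, 0.88 on 1427577_x_at, 0.27 on 1427660_x_at and 0.39 on 1452417_x_at. In the double knockout minus wild type they were 0.22 on 1427660_x_at, 0.48 on 1451965_at and 0.30 on 1452417_x_at, and in Fancg-/- minus wild type 0.76 on 1451965_at. On 1451965_at the Fancc-/- difference was 1.65, with overlap, since Fancc-/- replicate 3 at 7.80 lay below the wild-type mice. These differences were not tested, the probe sets may share sequence, and Fancc-/- on kappa genes is the comparison that guided the choice of genes.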

How the results depend on the processing

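Of 607 values of single genes and probe sets under other settings, 551 kept their direction and their side of the threshold, 24 lost and 12 gained a call, and 20 changed sign. Most of these values are of genes that did not pass in the main fit, so keeping their side mostly means staying uncalled. The 24 lost calls can come only from the few that passed. With arrays left out 1 at a time, gene counts ran from 14 to 1849 in the double knockout against wild type, 0 to 31 in Fancg-/-, 170 to 714 in Fancc-/-, 0 to 995 for the double knockout against Fancg-/- and 1 to 1283 against Fancc-/-. Members called ran from 0 to 4, 0 to 1 and 0 to 0 in the double knockout, Fancg-/- and the double knockout against Fancg-/-. The low double-knockout counts were 14 without wild-type replicate 2, 19 without double-knockout replicate 3 and 57 without double-knockout replicate 2, and 1849 came without replicate 1.

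Other counts are given against 629 genes in the double knockout, 6 in Fancg-/-, 540 in Fancc-/-, 0 for the double knockout against Fancg-/- and 1 against Fancc-/-. Array weights gave 3382, 277, 2250 and 1727 for the double knockout, Fancg-/-, and the double knockout against Fancg-/- and Fancc-/-, with 5, 2 and 3 members called in the first 3. Without variance moderation there were 39, 2, 250 and 0 for the double knockout, Fancg-/-, Fancc-/- and the double knockout against Fancc-/-, with 0 members called in the double knockout. With Xist as a covariate 0 genes passed in the double knockout (0 members), Fancg-/- and the double knockout against Fancc-/-. In these double-knockout comparisons Xist follows genotype, so that fit decides nothing there. Fits of only the groups compared gave 93 in Fancg-/-, 249 in Fancc-/-, and 2 and 3 for the double knockout against Fancg-/- and Fancc-/-. The filter at percentile 75 gave 2 in Fancg-/-, 38 for the double knockout against Fancc-/- and 1 member in the double knockout. The mean of all probe sets gave 10 and 21, and unique probe sets 3 and 7, with 1 member in the double knockout. The double knockout against Fancc-/- had 60 with every probe set, 19 after quantile normalization and 15 after median centring. With the replicate number as a block it had 5, Fancc-/- against wild type had 528, and no member call changed. Without Fancg-/- replicates 1 and 3 together, a setting added after the data were seen, counts were 224, 279 and 5 for the double knockout, Fancc-/- and the double knockout against Fancc-/-. The causes were not tested.

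Sign changes were as follows. In the double knockout Ighm read -0.23 and Jchain -0.82 with Xist as a covariate, Sdc1 0.22 with array weights, and with arrays left out Jchain -0.24 to 0.19 and Sdc1 -0.43 to 0.31. In Fancg-/- Ighm read -0.01 with median centring and -0.14 with Xist, Xbp1 -0.01, -0.05 and -0.05 with centring, array weights and Xist, and Jchain 0.38 without replicates 1 and 3. With arrays left out Ighm ran from -0.09 to 0.09, Jchain from -0.31 to 0.11 and Xbp1 from -0.07 to 0.09. Of the described values, Ighm read -0.21 in Fancc-/- on unique probe sets, and in the double knockout against Fancc-/- 0.54 with the mean of probe sets and 1.31 on unique ones. The other described values that changed sign were at -0.18 to 0.19.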
